A study of Mus musculus with 4 samples.

Results

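Colon neutrophils were chosen by the measured expression of a few genes, in barcodes that held 1000 or more gene UMIs (unique molecular identifiers, 1 per captured transcript), 250 or more genes and a mitochondrial share of 25% or less. S100a8 and S100a9 together had to make up at least 1% of gene UMIs. At least 1 UMI of Csf3r, Cxcr2, Il1r2 or Retnlg was required, and no UMI of Epcam, Krt8, Cd3e or C1qa was allowed. The rule found 1126 neutrophils among 13158 barcodes that passed the depth, gene and mitochondrial limits. Batch 1 held 473 of 6914 (6.84%, 95% Clopper-Pearson interval 6.26 to 7.46) and batch 2 held 653 of 6244 (10.5%, 9.71 to 11.2). All intervals here cover counting error only.

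The study profiled digested colon from C57/BL6J mice with a 3' droplet kit in 2 batches. Each batch mixed JUP-KO mice that received DSS (dextran sulfate sodium, which damages the gut epithelium), wild-type mice given DSS, untreated JUP-KO mice and untreated wild-type mice, each condition marked with its own hashtag antibody before a sort for viable cells. The hashtags carry the names TG_DSS, TG_WT, Ctrl_DSS and Ctrl_WT, and the groups are called by these names, because TG_WT reads as untreated JUP-KO by name but as wild type given DSS by antibody number, and Ctrl_DSS the other way round. TG_DSS is JUP-KO given DSS and Ctrl_WT is untreated wild type in both readings. The age of the mice, how Jup was deleted, in which cells, and whether the batches were separate mice are not stated in the sources used here. Jup, the targeted gene, encodes the junction protein plakoglobin. It had 4 and 5 UMIs in all neutrophils of batches 1 and 2 (2.81 and 1.98 UMIs per 1000000 gene UMIs, CPM), against 32.2 and 38.3 CPM in epithelial-gated cells, so its loss could not be checked in neutrophils.

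Neutrophils are short-lived phagocytes made in bone marrow. They carry antimicrobial proteins in granules that are filled in sequence during maturation, so primary granule genes are read in precursors and largely silent in the mature cell. They follow chemokines such as CXCL2 through the receptor CXCR2 into injured tissue, where they take up microbes, release oxidants and proteases, and secrete interleukin-1 beta and further chemokines. In the DSS-injured colon they are among the cells known to enter the mucosa early.

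The choice of cells used measured values, so the values in this paragraph are a description with no test. S100a8 and S100a9 encode the subunits of calprotectin, a metal-binding antimicrobial protein. They lie side by side on chromosome 3 of mm10, at 90668978 to 90670035 on the plus strand for S100a8 (ENSMUSG00000056054) and 90692632 to 90695721 on the minus strand for S100a9 (ENSMUSG00000056071). S100a9 stood at 104120 and 104754 CPM in the summed neutrophils of batches 1 and 2, and S100a8 at 60588 and 61359 CPM. Their joint share per cell had a median of 15.9% in batch 1 and 16.8% in batch 2, and reached 40.3% and 48.5%. The lowest shares inside the limit were 1.03% and 1.01%, and the highest outside it, among barcodes that met every other condition, were 0.687% and 0.856%. Few cells lay near the limit, with 10 and 13 inside below 2% and 1 and 5 outside between 0.5% and 1%. Of the other gate genes, Retnlg (a resistin-like secreted protein of myeloid cells) had 6677 and 10785 CPM, Il1r2 (the decoy receptor for interleukin-1) 1664 and 1088, Csf3r (the receptor for granulocyte colony-stimulating factor) 663 and 667, and Cxcr2 (the receptor for CXCL1 and CXCL2) 427 and 464.

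Among the conditions applied after the S100 limit, the one on Epcam and Krt8, which encode epithelial adhesion and keratin proteins, took out the most barcodes. Of 1025 and 1412 barcodes that met the S100 and receptor conditions, 538 and 711 had an Epcam or Krt8 UMI, and 265 and 366 of these had only 1 or 2. Epithelial transcripts are abundant in the free RNA of these libraries. The 8 epithelial markers summed to 814 and 777 CPM in neutrophils, against 21790.1 and 30669 CPM in barcodes of at most 100 UMIs and 27943 and 39319 CPM in epithelial-gated cells (2 or more Epcam and Krt8 UMIs, no Ptprc). Epcam and Krt8 are among the 8, so part of this gap is set by the gates. Each of the others was lower in neutrophils as well. Car1, the highest there, had 373 and 289 CPM in neutrophils, against 7904 and 10616 CPM in barcodes of at most 100 UMIs.

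Neutrophils were shallow cells. Their median was 2587 and 3143 UMIs and 733 and 848 genes, against 16888 and 15313 UMIs in epithelial-gated cells. Batch 1 held 133919905 gene UMIs over all barcodes and batch 2 held 95408149. The summed neutrophils held 1422132 and 2521747 UMIs. No barcode was a neutrophil in both batches, though 13 barcodes passed the quality limits in both. Markers of other cells were low but not absent. All 6 mast cell and basophil markers were at 0 UMIs, the eosinophil markers Epx and, in batch 1, Prg2 were at 0, and the 6 monocyte markers together had 169 and 351 CPM, against 3336 and 3154 in monocyte-gated cells. The monocyte gate picks cells by these markers except Ms4a6c, so the gap in the sum is partly set by the gate. Ms4a6c alone had 35.9 and 91.2 CPM in neutrophils against 1278 and 968 CPM in monocyte-gated cells. Igkc, an immunoglobulin chain of B and plasma cells, had 162 CPM in batch 1 and 4451 in batch 2, and 1 cell held 88.3% and 85.4% of its UMIs when every cell was thinned to 1000 UMIs.

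Of the markers that the choice of cells did not use, G0s2, an inhibitor of triglyceride breakdown, was the highest apart from Cxcl2. It had 16040 and 11381 CPM and was seen in 95.1% and 93.0% of neutrophils thinned to 1000 UMIs, against 1.38% and 1.80% of epithelial-gated cells thinned alike. Hdc, which makes histamine, had 2353 and 2192 CPM and was seen in 83.3% and 81.8% of thinned neutrophils, against 0.334% and 0.317% of epithelial-gated cells. Mmp9, the gelatinase of neutrophil granules, had 243 and 336 CPM. Ly6g, the surface antigen used to sort mouse neutrophils, did not set these cells apart from the epithelium. It had 140 and 116 CPM in neutrophils and 84.3 and 96.3 CPM in epithelial-gated cells, and was seen in 9.30% and 8.88% of thinned neutrophils against 5.84% and 7.39% of thinned epithelial-gated cells.

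**Figure D1:**
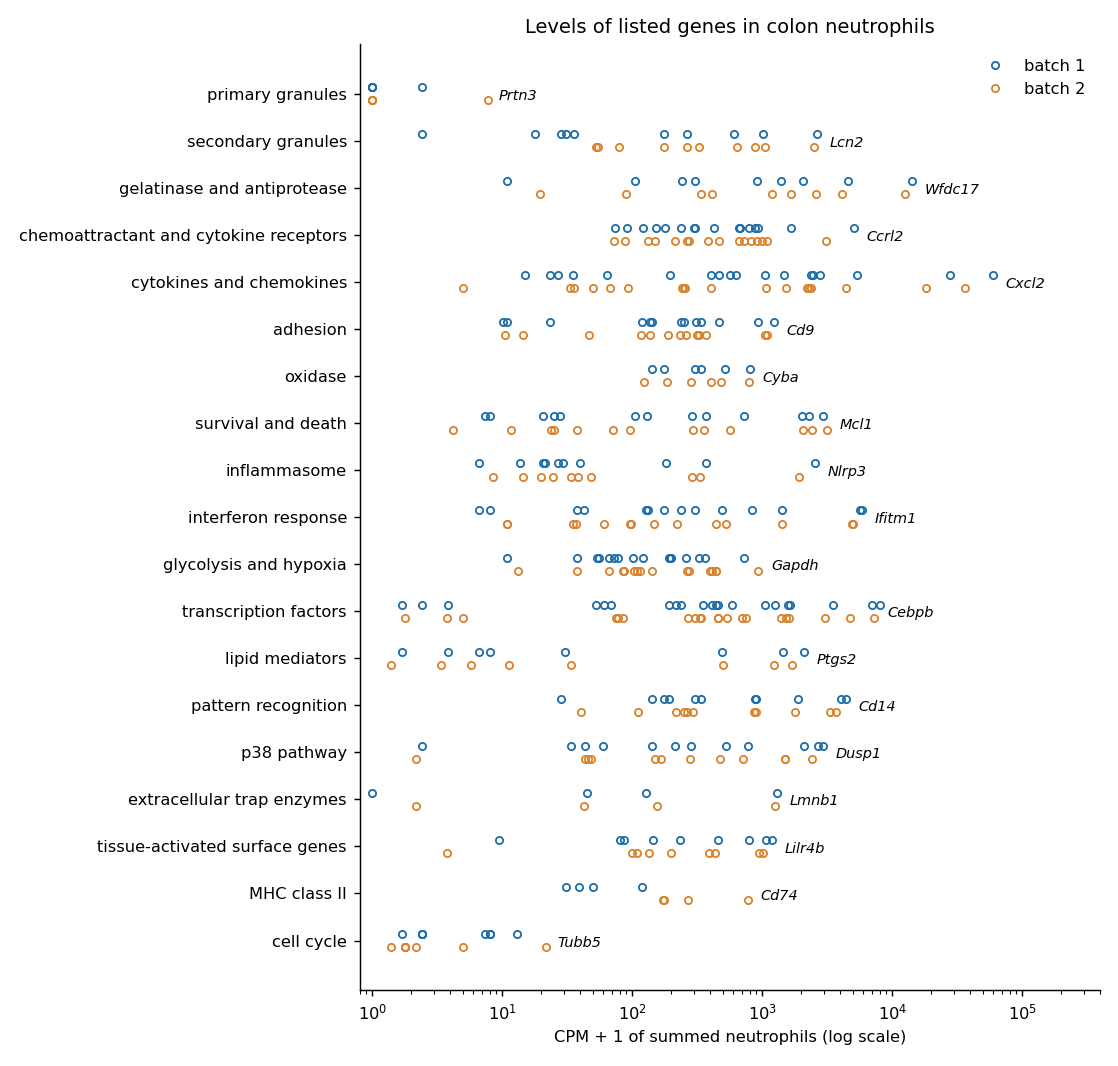
CPM + 1 of summed neutrophils on a log axis for the members of 19 gene lists, 1 open circle per gene and batch, with the leading gene of each list named. Primary granule and cell cycle genes sit at the low end, and Cxcl2 at 59201 and 36558 CPM is the highest circle.

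Primary granule genes, which are read in precursors, were at or near 0, while secondary granule genes ranged from abundant to rare. Of the 5 primary granule genes in the files, Mpo (myeloperoxidase), Elane (neutrophil elastase), Ctsg (cathepsin G) and Bpi had no UMI in either batch, which allows up to 2.11 and 1.19 CPM, and Prtn3 (proteinase 3) had 1.41 and 6.74 CPM. Among secondary granule genes, Lcn2, which binds bacterial siderophores, led with 2645 and 2523 CPM, followed by Hp (haptoglobin) at 1017 and 1041 CPM and Lyz2 (lysozyme) at 610 and 884. Mmp8, the neutrophil collagenase, had 262 and 328 CPM. Ngp and Camp, granule proteins made late in marrow maturation, were rare, with Ngp in 7.82% and 10.3% of thinned neutrophils and Camp in 0.211% and 1.07%. Cell cycle genes were near 0, and the highest of the 8 was Tubb5 at 11.95 and 20.6 CPM. Protease inhibitors were abundant instead. Wfdc17 had 14165 and 12480.2 CPM and was seen in over 92.6% of thinned cells of either batch. Slpi, which blocks elastase, had 4567 and 4127 CPM, and Wfdc21 had 2043 and 2607. The stefin A genes Stfa2l1 (1387 and 1677 CPM), Stfa1, Stfa2 and Stfa3 are near copies of each other, so the split of UMIs among them is uncertain.

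Among the listed cytokine and chemokine genes, Cxcl2 and Il1b had the most UMIs. Cxcl2, a ligand of CXCR2 on chromosome 5 (90903871 to 90905938, plus strand), had 59201 CPM in batch 1 (95% Poisson interval 58801 to 59602) and 36558 in batch 2. Il1b, on chromosome 2 (129364570 to 129371139, minus strand), had 27790.0 CPM in batch 1 (27517 to 28065) and 18105 in batch 2. Both were read in nearly all cells, with a Cxcl2 UMI in 98.1% and 98.9% of thinned neutrophils and an Il1b UMI in 99.8% and 98.6%. The chemokine genes Ccl4 and Ccl3 had 5402 and 4440 CPM and 2448 and 1528 CPM. They were more unevenly spread, with Ccl4 in 38.9% and 37.5% of thinned cells. Cxcl3 had 2801 and 2309 CPM and was seen in 31.3% and 32.2% of thinned cells. Il1rn, the interleukin-1 receptor antagonist, had 1054 and 1071 CPM, while Il6 had 14.1 and 3.97 and Il10 had 22.5 and 32.1.

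Further abundant genes were Fth1, the ferritin heavy chain (40502 and 40755 CPM), Srgn, the proteoglycan that packs granule contents (12660 and 10402), and the interferon-induced membrane genes Ifitm1 (5882 and 4982) and Ifitm2 (5695 and 4874). Acod1, which makes itaconate, had 5675 and 4057 CPM, against 151 and 207 CPM in monocyte-gated cells. Among adhesion genes Cd9 (1228 and 1056 CPM) and Cd44 (929.6 and 1087) led. Glycolysis genes were led by Gapdh (724 and 933 CPM), and Hif1a, the hypoxia factor, had 258 and 442.

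Among receptors, Ccrl2, which binds chemerin, had the most UMIs (5046 and 3098 CPM), followed by the gate gene Il1r2. Fpr1, the receptor for bacterial formyl peptides, had 925 and 1002 CPM, C5ar1, the complement C5a receptor, 885 and 906, and Ptafr, the receptor for platelet-activating factor, 796 and 818. Pattern recognition genes were led by Cd14, the lipopolysaccharide co-receptor (4399 and 3722 CPM), and the C-type lectins Clec4e (4029 and 3319.5) and Clec4d (1896 and 1791). Tlr2 and Tlr4 themselves had 191 and 291 CPM and 174 and 215 CPM. Trem1, an amplifier of inflammatory signals, had 902 and 859 CPM.

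The inflammasome list was uneven. Its sensor Nlrp3 had 2531 and 1932 CPM and was seen in 79.5% and 73.8% of thinned neutrophils. The adaptor Pycard had 26.0 and 47.2 CPM, the protease Casp1 had 38.7 and 32.9, and the pore-forming Gsdmd had 19.7 and 23.8. Casp4, which senses cytosolic lipopolysaccharide, had 369 and 330 CPM. The median of the 10 genes was 27.1 and 35.1 CPM, against 5.63 and 6.34 CPM for the 11919 genes with a UMI in both batches.

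Mcl1, the main anti-apoptotic protein of neutrophils, had 2947 and 3131 CPM, and Bcl2 had 7.03 and 3.17. Pim1, a survival kinase, had 2280.4 and 2056 CPM, and the death receptor Fas had 372 and 293. Transcription factor genes were led by Cebpb (7056 and 7288 CPM), Nfkbia, which encodes the NF-kB inhibitor and is itself an NF-kB target (8099 and 4725), and Junb (3503 and 3039). Cebpe and Gfi1, factors of granulocyte precursors, had at most 2.78 CPM. All 6 oxidase genes were read, from Cybb (141 and 123 CPM) to Cyba (809 and 795). Ptgs2, the inducible prostaglandin synthase, had 2088 and 1224 CPM and Alox5ap, needed for leukotriene synthesis, had 1438 and 1686. In the p38 pathway the phosphatase Dusp1 (2960.3 and 2417 CPM) and the mRNA decay factor Zfp36 (2681 and 1500.1) were the highest. Of the extracellular trap list, Padi4, which citrullinates histones, had 43.6 and 41.6 CPM, and Lmnb1, a nuclear lamin, had 1309 and 1245. Surface genes of tissue-activated neutrophils included Cd274 (the PD-1 ligand) at 788 and 391 CPM, Lilr4b at 1189 and 1020.3, Cd300lf at 456 and 432, and Siglecf at 8.44 and 2.78.

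Beside other myeloid cells of the same libraries, fewer genes were at least 4-fold higher in neutrophils than were at least 4-fold lower. Monocyte-gated cells (2 or more of Ccr2, Ly6c2, Csf1r, F13a1 and Fn1, S100 share under 1%; 74 and 295 cells) and C1q-gated cells (3 or more C1q UMIs; 97 and 187 cells) were summed alike. Genes were counted if their mean was 50 CPM or more in neutrophils or in the cells beside them, with gate genes left out. A gene could thus enter through the group where it is high, and lower does not mean absent. Of 2852 genes, 160 (5.61%) were at least 4-fold higher in neutrophils than in monocyte-gated cells in both batches and 534 (18.7%) were at least 4-fold lower. Against C1q-gated cells 194 of 3130 genes (6.2%) were higher and 747 (23.9%) lower. Both gates use measured genes, so no test was made.

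The genes farthest above monocyte-gated cells included BC018473, at 3546 and 2816 CPM in neutrophils against 22.3 and 22.1 CPM in monocyte-gated cells. G0s2 had 16040 and 11381 CPM in neutrophils against 16.7 and 127 CPM in monocyte-gated cells. Cstdc4, a stefin-like gene, had 1748 and 2214 CPM in neutrophils against 0 and 2.91 CPM, and was at least 209-fold higher in batch 1, where monocyte-gated cells had no UMI (floor of 3 UMIs over the summed cells). Hcar2, a receptor for butyrate and ketone bodies, had 1527 and 976 CPM in neutrophils against 30.7 and 27.3 CPM in monocyte-gated cells. Hdc, Fpr1, Pglyrp1 (a peptidoglycan-binding granule protein; 883 and 888 CPM in neutrophils), Il1f9 (an interleukin-1 family cytokine; 641 and 718), Asprv1 (595 and 652), Mrgpra2b (307 and 378) and Rdh12 (259 and 213) followed. In C1q-gated cells these genes reached at most 105 CPM (G0s2 in batch 2). Pglyrp1 is also read in the epithelium, at 669.7 and 787 CPM in epithelial-gated cells.

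The genes farthest below included Ccl5, a T cell-attracting chemokine, at 4.92 and 17.4 CPM in neutrophils against 1024 and 256 CPM in monocyte-gated cells. Ms4a6d had 10.5 and 32.5 CPM in neutrophils against 572 and 460 CPM in monocyte-gated cells, and Arg1, which degrades arginine, had 3.52 and 3.17 CPM against 64.2 and 82.6. The 4 MHC class II genes were all at least 4-fold lower, with Cd74 at 118 and 771 CPM in neutrophils against 8132 and 3929 CPM in monocyte-gated cells. Of the 18 listed cytokines and chemokines, 2 were at least 4-fold higher than in monocyte-gated cells in both batches (Cxcl2 and the histamine enzyme gene Hdc, which the list holds) and 1 was lower (Il10). Of the 2852 genes counted above, 5.61% were higher and 18.7% lower by that measure. Cxcl2 was 15.6-fold higher in batch 1 and 5.05-fold in batch 2, and Il1b was 8.22-fold higher in batch 1 but 3.61-fold in batch 2.

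**Figure D2:**
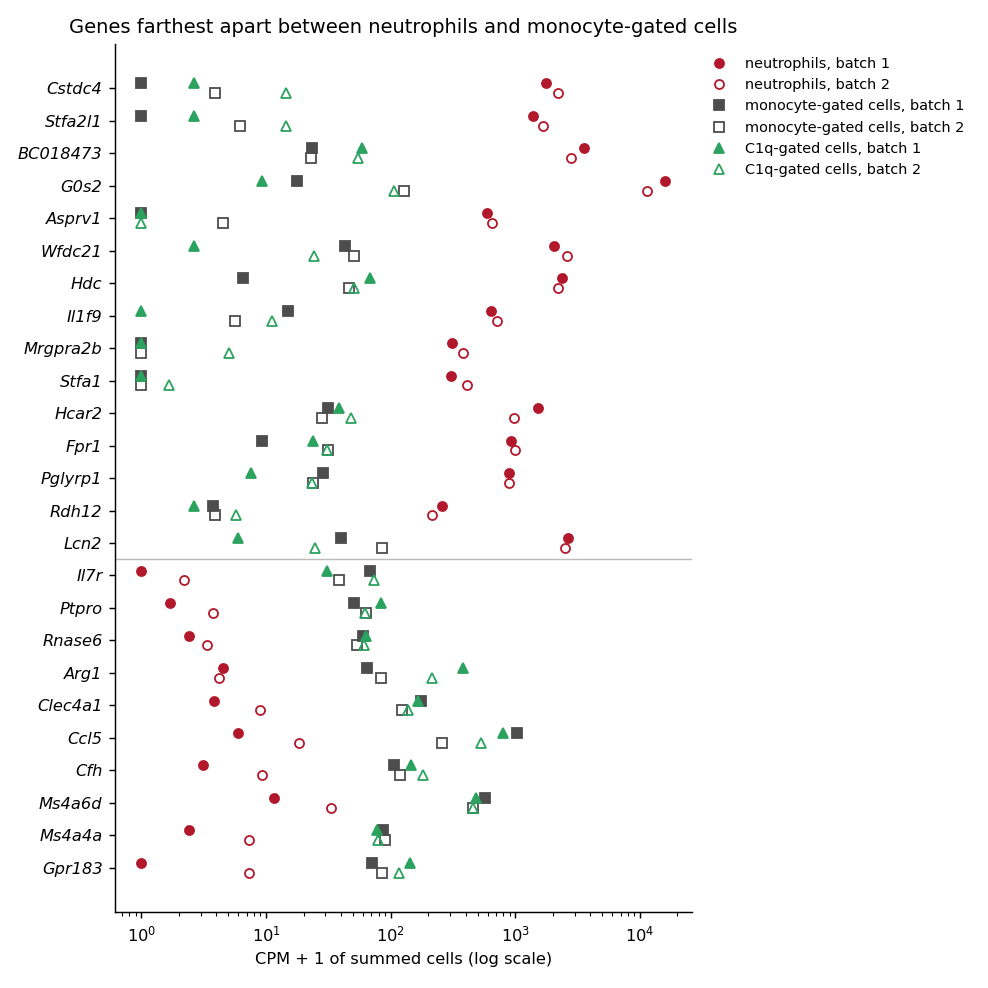
CPM + 1 of summed cells on a log axis for the 15 genes farthest above and the 10 farthest below monocyte-gated cells, with filled symbols for batch 1 and open symbols for batch 2. In each of the upper 15 rows both neutrophil circles lie to the right of all squares and triangles, and in the lower 10 rows to the left.

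The neutrophils of the batches had closely similar profiles. Over 4200 genes at 10 CPM or more in both, the correlation of log10 CPM was 0.963 (Pearson, across genes, which are not independent replicates), and 3986 genes lay within 2-fold. A further 174 genes were more than 2-fold higher in batch 2 and 40 more than 2-fold higher in batch 1. Among those higher in batch 1, Cxcl10, a chemokine for activated T cells, had 1626 CPM in batch 1 and 398 in batch 2, Gbp5, a guanylate-binding protein, had 394 and 91.2, Irf1 had 1145 and 333, and Cd274 had 788 and 391. Il23a, a subunit of interleukin-23, had 193 and 66.6 CPM, Il1a 570 and 242, and Cxcl1 632 and 252. Higher in batch 2 were immunoglobulin genes, MHC class II genes, Chil3 (27.4 and 174 CPM), Ngp (175 and 642) and the heat-shock gene Hspa1a (283 and 809). For Cd74 the difference was not there without the barcodes of sub-cluster 7, a small group led by Cd74 and H2-Aa (5 and 40 barcodes): it stood at 78.9 CPM in batch 1 and 73.5 in batch 2. Hspa1a was concentrated in the same barcodes, at 3281 and 4267 CPM. In every other sub-cluster it had at most 659 CPM in batch 1 and 310 in batch 2. Its level without sub-cluster 7 was not computed. Among neutrophils labelled TG_DSS alone, Cxcl10 had 1743 CPM in batch 1 and 271 in batch 2, Gbp5 had 412 and 67.5, Cd274 778 and 315, and Ngp 181 and 950, while Hspa1a had 249.7 and 368. There is 1 library per batch, so batch and mice cannot be told apart.

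**Figure D3:**
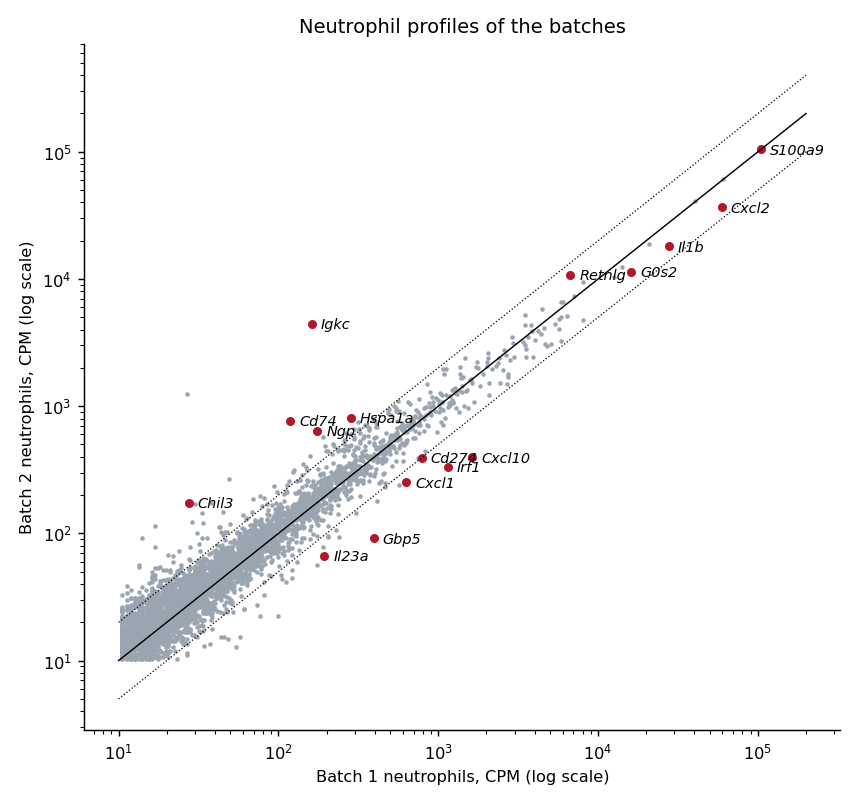
CPM of summed neutrophils in batch 1 (horizontal) and batch 2 (vertical), both log axes, 1 point per gene at 10 CPM or more in both, with a solid line at equality and dotted lines at 2-fold. Most of the 4200 points lie between the dotted lines, with Igkc and Cd74 above and Cxcl10, Gbp5 and Il23a below.

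Variation among neutrophils was measured over cells thinned to 1000 UMIs, with the Fano factor (variance over mean) of 921 genes averaging at least 0.1 UMI in both batches. The median Fano factor was 1.19 and 1.22. Cxcl2 had 28.2 and 31.5, Ccl4 27.9 and 31.3, Retnlg 16.2 and 17.5, Cxcl3 16.3 and 17.1, Cxcl10 13.2 and 12.9, and Cstdc4 10.3 and 12.1. Other leaders were mt-Co1, S100a9, S100a8, Fth1 and further mitochondrial genes, and Igkc, most of whose UMIs sat in 1 cell a batch, had the highest value. A median cell of batch 1 had 49 Cxcl2 UMIs of 1000, and 10% of cells had 17 or fewer or 116 or more. In batch 2 the median was 28, with 7 and 88.8 at the same limits. Ccl4 was concentrated, the top 10% of cells holding 66.5% and 72.0% of its UMIs, and so was Cxcl10, with 86.1% and all of its UMIs.

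Spearman's rho, given as a description over 473 and 653 cells that share a library, was 0.84 and 0.83 for S100a8 with S100a9, and 0.60 and 0.51 for S100a8 with Retnlg. S100a8 with Lcn2 had 0.42 and 0.41, and Retnlg with Mmp8 had 0.38 and 0.34. Cxcl2 had a positive rho with Il1b (0.31 and 0.54), with Ccl3 (0.38 and 0.32) and with Cxcl3 (0.45 and 0.30), and Il1b with Nfkbia (0.39 and 0.51). Il1b had little relation to Ccl3 (0.03 and 0.14) or Cxcl3 (0.06 and 0.10), and Nfkbia little to Ccl3 (-0.01 and 0.16) or Cxcl3 (-0.05 and 0.02). Cxcl10 had 0.33 and 0.06 with Irf1 and 0.34 and 0.13 with Cd274. Nfkbia had a negative rho with S100a8 (-0.41 and -0.38) and with S100a9 (-0.34 and -0.30). Shares of a fixed total of 1000 UMIs compete, and S100a8 and S100a9 take a large part of it.

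Promoters are shown for abundant genes (Cxcl2, Il1b, S100a9), for genes that varied among cells (Cxcl3, Retnlg, Cxcl10) and for Rsad2, a gene of the tag comparison. The RefSeq table (GRCm38.p6, the build of mm10) held 20 of 21 genes looked up, Ccl4 being the one without an entry. Bases 250 to 51 before the RefSeq start are given, 5′ to 3′ on the gene's strand, and 8 of the 20 windows hold a GENCODE exon and are not printed. Of the other 12, 7 are shown. Capitals mark matches on either strand to 5 motifs, NF-kB (GGG, any 2 bases, TTTCC), C/EBP (TTGCNNAA), the interferon-stimulated response element or ISRE (TTTC, any 2 bases, TTTC), PU.1 (GAGGAAG) and AP-1 (TGANTCA).
Cxcl2, chr5:90903649-90903848, plus strand: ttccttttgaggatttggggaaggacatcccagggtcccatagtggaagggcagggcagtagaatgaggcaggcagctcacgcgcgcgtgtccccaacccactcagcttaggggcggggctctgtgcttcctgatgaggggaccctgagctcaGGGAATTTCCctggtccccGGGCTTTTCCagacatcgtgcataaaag
Cxcl3, chr5:90785851-90786050, plus strand: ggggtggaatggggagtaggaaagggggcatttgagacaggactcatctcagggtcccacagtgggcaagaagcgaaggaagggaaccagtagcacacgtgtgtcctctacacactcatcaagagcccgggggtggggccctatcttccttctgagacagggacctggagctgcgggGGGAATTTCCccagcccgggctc
Il1b, chr2:129371190-129371389, minus strand: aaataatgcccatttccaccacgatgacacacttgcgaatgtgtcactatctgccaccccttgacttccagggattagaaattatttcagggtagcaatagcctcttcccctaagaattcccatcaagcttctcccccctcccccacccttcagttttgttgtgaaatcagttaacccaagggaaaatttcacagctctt
S100a9, chr3:90695772-90695971, minus strand: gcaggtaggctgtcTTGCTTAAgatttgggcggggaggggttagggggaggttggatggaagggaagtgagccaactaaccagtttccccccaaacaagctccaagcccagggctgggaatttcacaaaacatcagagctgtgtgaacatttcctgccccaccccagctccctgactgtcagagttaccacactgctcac
Retnlg, chr16:48872358-48872557, plus strand: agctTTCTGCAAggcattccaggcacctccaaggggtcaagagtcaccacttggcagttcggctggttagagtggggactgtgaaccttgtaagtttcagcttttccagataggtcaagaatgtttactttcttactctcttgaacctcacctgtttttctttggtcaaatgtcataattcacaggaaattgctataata
Cxcl10, chr5:92348940-92349139, minus strand: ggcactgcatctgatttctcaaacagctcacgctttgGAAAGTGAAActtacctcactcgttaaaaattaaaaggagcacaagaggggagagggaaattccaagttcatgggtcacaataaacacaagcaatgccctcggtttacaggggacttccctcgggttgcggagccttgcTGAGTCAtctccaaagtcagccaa
Rsad2, chr12:26456503-26456702, minus strand: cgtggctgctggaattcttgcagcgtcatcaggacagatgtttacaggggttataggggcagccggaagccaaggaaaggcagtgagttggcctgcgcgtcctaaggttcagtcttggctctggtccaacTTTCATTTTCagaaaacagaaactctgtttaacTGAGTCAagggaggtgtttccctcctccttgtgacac

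Cxcl2 held 2 matches to the NF-kB letters and Cxcl3 held 1, while 1.05% of 32851 promoter windows of the same length hold any. S100a9 and Retnlg each held 1 match to the C/EBP letters, which 8.11% of windows hold. Cxcl10 and Rsad2 each held 1 ISRE match (2.40% of windows) and 1 AP-1 match (5.57%). Il1b held none of the 5, and 7 of the 20 windows held none. PU.1 letters were in 3 of the 20 windows and in 8.12% of all. The genes and motifs were picked after the expression values were seen, and a match is a run of letters and not a shown site.

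Clustering the thinned neutrophils of both batches together gave 7 sub-clusters, whose leading genes are their definition and not a result. Sub-cluster 1 (134 and 219 cells) was led by immunoglobulin genes and then by Dusp2, Cask and Cd300a, sub-cluster 2 (70 and 156) by Ngp, Camp, Retnlg and Mmp8, and sub-cluster 3 (93 and 118) by Ccl4, Cxcl3 and Ccl3. The Igkc lead of sub-cluster 1 is not a trait of its cells at large, since 1 cell held 88.3% and 85.4% of the Igkc UMIs of all thinned neutrophils. Sub-cluster 4 (64 and 55) was led by mitochondrial genes and had a median mitochondrial share of 8.68% and 10.5%. Sub-cluster 5 (41 and 56) was led by Cxcl3, Spp1 and Hilpda, sub-cluster 6 (66 and 9) by Cxcl10, Gbp5 and Rsad2, and sub-cluster 7 (5 and 40) by Cd74, H2-Aa and Hspa1a. Sub-cluster 7 went against the name neutrophil. Its leading genes hold MHC class II and monocyte genes, its barcodes had a median of 7769 and 8258 UMIs and an S100 share of 4.72% and 4.56%, and 40.0% and 60.0% of them were over more than 1 hashtag threshold.

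The share of sub-cluster 6 differed most between batches, at 13.95% of neutrophils in batch 1 (95% Clopper-Pearson interval 10.96 to 17.4) and 1.38% in batch 2 (0.632 to 2.60). Within one tag the gap was as wide. Sub-cluster 6 held 64 of 426 TG_DSS neutrophils in batch 1 and 2 of 350 in batch 2. It held 1 of 10 TG_WT neutrophils in batch 1 and 6 of 160 in batch 2. Sub-cluster 2 held 16.0% and 30.6% of TG_DSS neutrophils, against 0 of 10 and 17.5% of TG_WT neutrophils. Sub-cluster 3 held 18.5% and 12.3% of TG_DSS neutrophils, against 20.0% and 30.6% of TG_WT neutrophils. No test was made, since 2 batches against 2 cannot reach 0.05 in an exact test.

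**Figure D4:**
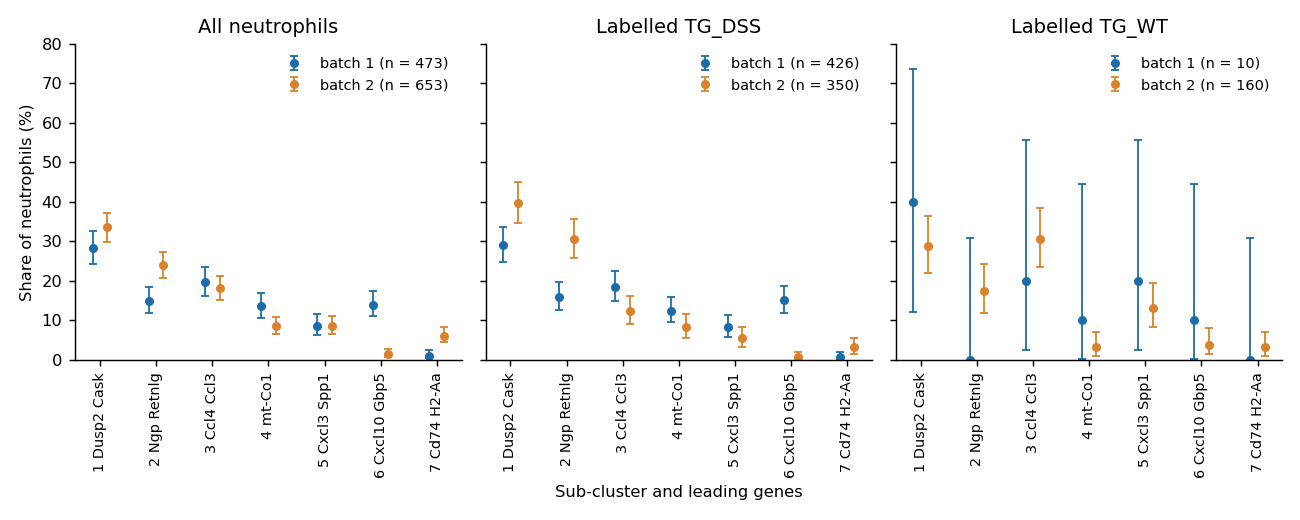
Share of neutrophils (%) in each of 7 sub-clusters for all neutrophils, those labelled TG_DSS and those labelled TG_WT, with 95% Clopper-Pearson intervals that cover counting error only. Sub-cluster 6 stands at 13.95% in batch 1 and 1.38% in batch 2, and the 10 TG_WT cells of batch 1 have wide intervals.

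Nearly all neutrophils with a single hashtag were labelled TG_DSS or TG_WT. In batch 1, 426 were labelled TG_DSS, 10 TG_WT, none Ctrl_DSS and 1 Ctrl_WT. In batch 2, 350 were labelled TG_DSS, 160 TG_WT, 3 Ctrl_DSS and none Ctrl_WT. They made up 26.2% and 24.8% of all TG_DSS barcodes, 2.22% and 13.6% of TG_WT barcodes and at most 0.680% of Ctrl_DSS and 0.658% of Ctrl_WT barcodes. The TG_WT share thus differed between batches beyond its counting intervals (1.07 to 4.04 and 11.7 to 15.7), while the TG_DSS intervals overlapped. The 0 of 398 Ctrl_DSS barcodes in batch 1 allows a share of up to 0.754%, and the 0 of 87 Ctrl_WT barcodes in batch 2 up to 3.45%. These bounds take the tags as called. The fitted components of Ctrl_DSS in batch 1 had means of 98.2 and 177 tag UMIs, with a threshold of 205. Those of Ctrl_WT in batch 2 had 22.1 and 56.3, with a threshold of 60.0. Those of Ctrl_WT in batch 1 had 125 and 153, with a threshold of 230. Each of these thresholds lay above both means of its fit, so which barcodes belong to these groups is uncertain. A further 16 and 11 neutrophils had no tag and 20 and 129 were over more than 1 threshold. Of all barcodes that passed the quality limits, 3831 of 6914 and 2362 of 6244 had no tag. The shares per tag leave these out, and neutrophils were untagged less often than other barcodes. These counts depend on how tags are called: giving each barcode its highest tag, relative to that tag's median, where it was at least 3 times the next labelled 182 and 307 neutrophils TG_DSS and 16 and 256 TG_WT.

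TG_DSS and TG_WT neutrophils were compared on UMIs summed per tag and batch (1277430 and 1169817 UMIs in TG_DSS, 25839 and 515855 in TG_WT) with edgeR's quasi-likelihood test and batch as a block, the only comparison here that the choice of cells did not use. It answers how the cells of JUP-KO mice given DSS differ from those under the TG_WT tag, which is either untreated JUP-KO or wild type given DSS. Of 4254 genes, 17 (0.4%) passed an adjusted p of 0.05 (Benjamini-Hochberg), 14 (0.329%) higher and 3 (0.0705%) lower in TG_DSS. P-values rest on a spread between these sums that edgeR shares across genes, and that spread may be technical. With so few sums, a gene's own disagreement between batches weighs little in its p-value. SE is the absolute log2 fold change over the square root of the test's F value.

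The highest of the listed cytokine and chemokine genes, Cxcl2 and Il1b, did not pass. Cxcl2 had 59964 and 39741 CPM in TG_DSS neutrophils against 60606 and 33475 CPM in TG_WT neutrophils (log2 fold change 0.30, SE 0.605, edgeR adjusted p = 0.998). Il1b had 28243 and 20690.4 CPM in TG_DSS neutrophils against 31929 and 14832 CPM in TG_WT neutrophils (0.34, SE 0.539, adjusted p = 0.998 by edgeR). Nlrp3 had 2584 and 1862 CPM in TG_DSS neutrophils against 2399 and 1991 CPM in TG_WT neutrophils. Ccl3 (2331 and 1293 CPM in TG_DSS against 5883 and 1644 in TG_WT) and Ccl4 (5315 and 3118 against 5457 and 7027) did not pass either. These standard errors leave room for changes of more than 2-fold.

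The 3 genes that fell in TG_DSS neutrophils are all interferon-response genes. Ifit1, an antiviral RNA-binding protein, had 35.2 and 8.55 CPM in TG_DSS neutrophils against 194 and 85.3 CPM in TG_WT neutrophils (log2 fold change -2.79, SE 0.627, edgeR adjusted p = 0.00368). Rsad2, the antiviral enzyme viperin, had 122 and 19.7 CPM in TG_DSS neutrophils against 310 and 178 CPM in TG_WT neutrophils (-2.22, SE 0.543, edgeR adjusted p = 0.0136). Gbp2 had 241 and 79.5 CPM in TG_DSS neutrophils against 542 and 477 CPM in TG_WT neutrophils (-1.82, SE 0.461, edgeR adjusted p = 0.0210). In each gene both TG_DSS values lay below both TG_WT values. Single cells carried much of this, since 1 TG_WT cell held 93.2% of the Ifit1 UMIs and 1 held 78.3% of the Rsad2 UMIs of batch 2, and batch 1 rests on 5 and 8 UMIs in 1 of 10 cells. Gbp2 was more widely read, in 121 and 48 TG_DSS cells against 4 and 55 TG_WT cells. Spp1, which encodes osteopontin, missed the threshold with 233 and 157 CPM in TG_DSS neutrophils against 851 and 459 CPM in TG_WT neutrophils (edgeR adjusted p = 0.0829). Of the 14 interferon-response genes, 12 were tested, 3 fell (0.0705% of all genes tested fell) and none rose, with a median log2 fold change of -0.44 against 0.12 over all genes tested. Without the cells that carried them, Ifit1 and Rsad2 had log2 fold changes of -0.99 and -0.95 and did not pass. All 3 are among the leading genes of sub-cluster 6.

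Of the 14 genes that rose, 3 belong to the lists. Cxcl1, a CXCR2 ligand, had 676 and 311 CPM in TG_DSS neutrophils against 77.4 and 110 CPM in TG_WT neutrophils (log2 fold change 1.97, SE 0.479, edgeR adjusted p = 0.0131). Ngp had 181 and 950 CPM in TG_DSS neutrophils against 0 and 277 CPM in TG_WT neutrophils (1.99, SE 0.508, edgeR adjusted p = 0.0234). Camp, the cathelicidin, had 1.57 and 384 CPM in TG_DSS neutrophils against 0 and 15.5 CPM in TG_WT neutrophils (4.54, SE 0.791, edgeR adjusted p = 1.08e-05). Camp UMIs were in 2 and 9 TG_DSS cells. Saa3 (acute-phase protein), Mt1 (metallothionein), Ccl2 (monocyte-attracting chemokine) and Hspb1 (small heat-shock protein) rose too, with log2 fold changes of 2.85, 3.00, 3.31 and 3.33. Mt1 is abundant in the epithelium (726 and 884 CPM in epithelial-gated cells), and 1 cell held 70.6% of the Hspb1 UMIs of TG_DSS neutrophils in batch 2. The secondary granule list had 2 of 10 members that rose and none that fell, with a median log2 fold change of 0.94 against 0.12 over all genes tested, of which 0.329% rose. Both are Ngp and Camp, whose UMIs of batch 2 sat to 30.3% and 49.2% in 1 TG_DSS cell.

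The other 7 genes that rose are known from plasma cells or connective tissue. Igha, Igkc and Jchain are immunoglobulin genes of plasma cells, and Sparc, Dcn, Col3a1 and Igfbp7 are matrix and vascular genes of fibroblasts and endothelium. Igkc had 178 and 9476 CPM in TG_DSS neutrophils against 38.7 and 161 CPM in TG_WT neutrophils, and 1 TG_DSS cell of batch 2 held 99.1% of its UMIs there. Igha had 29.0 and 2680 CPM in TG_DSS neutrophils against 38.7 and 38.8 CPM in TG_WT neutrophils, so it was higher in batch 2 alone. In Col3a1 and Igfbp7, 1 cell held 82.4% and 76.9% of the TG_DSS UMIs of batch 2. In all, 7 of the 17 genes had over 50% of their TG_DSS UMIs of batch 2 in 1 cell, and 11 had no UMI in the 10 TG_WT cells of batch 1.

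Without the 22 cells that held over 50% of the UMIs of some gene with at least 20 UMIs in their batch (10 and 9 labelled TG_DSS, 3 of batch 2 labelled TG_WT), the one gene that passed was Camp (log2 fold change 4.60, edgeR adjusted p = 9.32e-05). In that fit Gbp2 had -1.72 (edgeR adjusted p = 0.412), Ngp 2.05 and Cxcl1 1.98 (edgeR adjusted p = 0.234 for both), and Ifit1 and Rsad2 had an edgeR adjusted p of 0.998. The limit of 50% did not reach Camp itself. Its leading TG_DSS cell of batch 2 held 49.2% of the Camp UMIs there, so Camp did not mark that cell for removal. No gene passed without the TG_DSS or the TG_WT sum of batch 2 in edgeR, with 65 and 460 genes at an unadjusted p under 0.05, and 51 passed without the 10 TG_WT cells of batch 1.

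**Figure D5:**
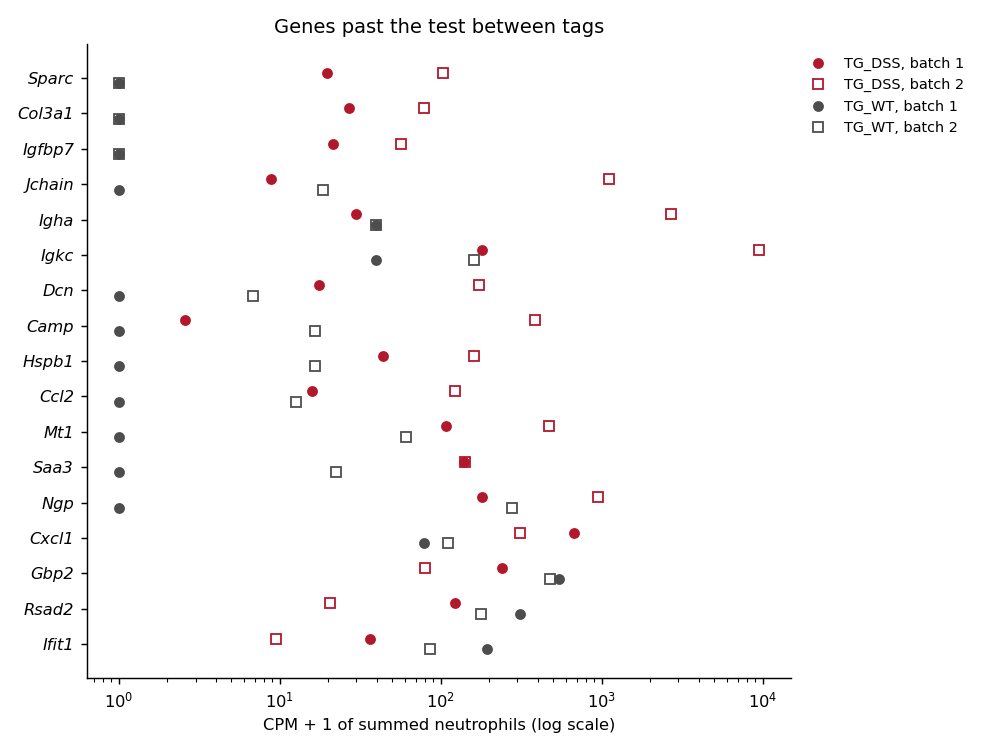
CPM + 1 on a log axis of the 17 genes that passed the test, in summed TG_DSS and TG_WT neutrophils, with filled symbols for batch 1 and open symbols for batch 2. The lowest 3 rows (Gbp2, Rsad2, Ifit1) have both TG_DSS values left of both TG_WT values, and 11 genes sit at 0 CPM in the TG_WT cells of batch 1.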

How the data were processed

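Raw UMI counts of 32285 genes and 4 hashtag features over all barcodes were deposited by the authors; per the submitters' processing notes they used Cell Ranger 7.0.0 and mm10. Replicates were not pooled, and library 1 and 2 are the batches. Their gene annotation is not named in those notes. Gene coordinates come from GENCODE M21 (mm10), which held 32158 of the gene IDs (99.6%). UMI counts are tags near the 3' end and were not scaled by length.

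Neutrophils were gated as described in the report and summed per batch (CPM), with exact Poisson intervals. The members, gene lists, gates and tests were chosen with earlier results of these data known. No doublet caller was run. Tags were called per batch by fitting 2 normal components to log10 tag counts and setting the threshold above the narrower one; that threshold was revised after a first version had called most cells for several tags. Sub-clusters used scanpy 1.11.5 (1000 variable genes, 20 components, 15 neighbours, Leiden resolution 0.5). Sums were tested with edgeR 4.0.16 (TMM, filterByExpr, batch block, since each batch was pooled and loaded together); sums under 10 cells were left out, so the Ctrl tags were not tested. The fit was also run on counts simulated at the mean levels and depths of this comparison (3896 genes, 200 changed 4-fold). It recovered 80% with 3 false calls. The simulation had a fixed spread, no batch difference and no UMIs concentrated in single cells, so these figures cannot be carried over to the calls made here. Alternatives included DESeq2 1.42.0. Named genes were the gate genes, leading list members, the highest genes, those farthest from monocyte-gated cells, Fano leaders and calls of the tag test; gene pairs, promoters, sub-cluster panels, Ly6g and Ccl2 were picked after values were seen.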

Additional observations from a re-analysis of the deposited data

How the results depend on the processing

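The count of genes that passed between TG_DSS and TG_WT neutrophils, 17 by edgeR with the batch block, was also 17 without the block (14 of the same genes). It stayed within 1.5 times with library totals in place of TMM (22), with untagged neutrophils sharing the estimate of spread (14), with no filter on low counts (17, of which 9 the same) and at limits of 500 UMIs or 10% mitochondrial UMIs (16 each). It was 1 with DESeq2 (Mt1), 1 with the highest-tag rule (Jchain), 1 with every cell thinned to 1000 UMIs (Igkc), 10 with equal numbers of cells, 11 at 2000 UMIs or with 2 marker UMIs and 2 with an S100 share of 5%. Of alternatives chosen after seeing the data, leaving out sub-cluster 7 gave 6, and leaving out the 22 cells above gave 1. Leaving out 1 sum at a time gave 0 to 51, with the lone sum of a tag assumed to vary like the other tag's. Direction turned for Igha without the TG_DSS sum of batch 2 (-0.25), at an S100 share of 5% (-0.35) and without the 22 cells (-0.78), for Igkc in the last 2 (-0.10 and -0.85), and with the highest-tag rule for Dcn (-1.30), Igfbp7 (-0.91) and Hspb1 (-1.34). Apart from the alternatives that leave these cells out, the cause was not tested. In a panel of named genes, levels moved by over 1.5 times in 7 of 770 recomputed values, all of Cd74 or Igkc. Outside it, only the mean over cells was computed, and it moved other low or unevenly spread genes as far, among them Chil3 (15.5 and 109 CPM), H2-Aa (25.6 and 108) and Hspa1a (184 and 437). No alternative limit moved the number of neutrophils by that much. With 10 cells in the TG_WT sum of batch 1, a gene under 116 CPM there has at most 3 UMIs.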

Other observations

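Barcodes over more than 1 hashtag threshold were deeper than singly tagged neutrophils, with a median of 5059 UMIs in the 129 of batch 2, against 2996 UMIs in TG_DSS and 2982 UMIs in TG_WT neutrophils there. Cxcr4, which is known to mark aged neutrophils, had 344 and 348 CPM in sub-cluster 1 and 34.5 and 164 CPM in sub-cluster 2, which Ngp and Retnlg lead. Csf3r had 873 and 877 CPM in sub-cluster 1 and 694 and 725 CPM in sub-cluster 2, and Cxcr2 had 433 and 553 CPM in sub-cluster 1 and 435 and 519 CPM in sub-cluster 2. These are values of the cells that were clustered, with no test.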
